A study of Mus musculus with 6 samples.

Results

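The 40 genes described here encode cathepsins and other proteins of the lysosome, and were taken by gene symbol from the count files of 6 bulk RNA sequencing libraries. The libraries were made from cultured enteric glial cells (EGCs), which ensheath the neurons of the gut. The genes are 40 of the 46603 gene identifiers in the files, and each was found once. The rule used the symbols alone. All 40 had at least 143 counts in every library and passed the filter on low counts. The study prepared EGCs from neurospheres, floating clusters of neural progenitors grown from the whole intestine of E14.5 embryos of the C57BL/6J strain, which were then plated and grown to confluence in medium with fetal bovine serum. The control group (3 libraries) received no treatment. The LPS group (3 libraries) received 100 ng/ml lipopolysaccharide (LPS), a component of the outer membrane of gram-negative bacteria, for 12 h. Both groups are of this strain with no genetic change named in the labels, and no sorting is described, so any cell type of the intestine that survives the culture can be part of each library. The labels give each library a replicate number from 1 to 3 but do not say whether the replicates came from separate embryos, litters or cultures, and p-values therefore measure the spread between these libraries, which may be technical. The comparison addressed here is whether the transcripts of lysosomal genes in these EGC cultures change with LPS.

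Lysosomes are the acidic compartments in which cells break down proteins, glycans and lipids taken up from outside or delivered by autophagy. Soluble hydrolases, among them the cathepsins, are tagged with mannose 6-phosphate in the Golgi and sorted to the lysosome, a proton pump acidifies the lumen, and heavily glycosylated membrane proteins line the inner surface. Many of the genes share a short promoter element around the letters CACGTG, which the transcription factor TFEB and its relatives bind when they enter the nucleus. Macrophages and microglia are especially rich in lysosomal hydrolases, but all nucleated cells carry them, and loss of single hydrolases such as galactosylceramidase damages myelinating glia.

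Library totals lay between 18775316 and 23664312 counts. The libraries numbered 3 stood apart in both groups. All 12 genes of a macrophage marker list were higher in control replicate 3 than the mean of the other controls, by 2.38- to 8.84-fold, and all 12 were higher in LPS replicate 3 than the mean of the other LPS libraries, by 3.34- to 52.2-fold. Their summed level in counts per 1e6 counts (CPM) was 3984, 5159 and 12261 in the controls and 3976, 5166 and 20089 after LPS, each in the order of the replicate numbers, as for all values listed by library. None of the 12 was at 0 in any library, and the lowest was Cx3cr1 with 0.167 CPM in LPS replicate 2, which is 3 counts. The glial transcription factor gene Sox10 was present in every library, with 73.8 to 101 CPM in control and 75.9 to 78.2 CPM in LPS, and the 10 genes of a glia list summed to 717 to 955 CPM in control and 754 to 783 CPM in LPS. The glial marker Gfap was low, with 2.23 to 7.22 CPM over all libraries. In the edgeR test below, 1 gene of the glia list was called higher and 1 lower, beside 9.09% and 6.71% of tested genes. S100b had 24.7, 20.5 and 21.4 CPM in control and 4.94, 3.46 and 9.37 CPM in LPS (log2 fold change -1.91, edgeR adjusted p = 0.0238). Fabp7 had 2.67, 2.26 and 2.73 CPM in control and 5.34, 7.41 and 6.07 CPM in LPS (1.29, edgeR adjusted p = 0.0122). Mesenchymal markers summed to 15124 CPM or more in each library and thus far above the glia list. Most of this came from collagen genes such as Col1a1, with 5445 CPM or more, whereas Pdgfra had 166 to 257 CPM. Sums of markers do not give the shares of cell types. Smooth muscle markers were lower after LPS in 6 of 6 genes, with sums of 2266 to 2492 CPM in control and 634 to 900 CPM in LPS. In these bulk libraries, fewer cells of a type and less RNA per cell cannot be told apart. Because of the libraries numbered 3, the calls among the 40 genes are given below with all 6 libraries, with the replicate number added to the model as a block, and without both libraries numbered 3.

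To show the promoter element named above, sequence just upstream of transcription start sites was taken from the RefSeq promoter table for GRCm38.p6, whose windows run from 250 bases before to 50 bases after each start. A window was found for 36 of the 40 genes (42 windows, as some genes have more than 1 start). The 8 stretches shown are from Lamp1, which had 4 copies of the element, from the 5 genes with a longer form of it, and from Galc and Lipa, the genes with the largest falls among those called without a replicate block in all 6 libraries. All are printed 5′ to 3′ on the strand of the gene, with CACGTG in capitals.
Lamp1: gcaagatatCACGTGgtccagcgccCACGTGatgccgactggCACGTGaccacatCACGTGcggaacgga
Mcoln1: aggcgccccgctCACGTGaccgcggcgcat
Ctsd: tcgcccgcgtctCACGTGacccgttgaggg
Cln3: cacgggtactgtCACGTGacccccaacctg
Gla: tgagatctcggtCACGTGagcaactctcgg
Ctsa: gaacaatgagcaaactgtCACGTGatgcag
Galc: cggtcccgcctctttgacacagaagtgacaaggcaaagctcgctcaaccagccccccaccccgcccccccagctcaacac
Lipa: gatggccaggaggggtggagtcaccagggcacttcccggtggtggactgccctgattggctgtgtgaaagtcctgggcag

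The Lamp1 stretch lies at chr8:13159091-13159160 on the plus strand, from -70 to -1, and holds 4 copies of the element. The Mcoln1 stretch is chr8:3500462-3500491 on the plus strand, from -57 to -28, and the Ctsa stretch is chr2:164833743-164833772 on the plus strand, from -30 to -1. On the minus strand are the stretches of Ctsd (chr7:142387908-142387937, from -110 to -81), Cln3 (chr7:126583340-126583369, from -133 to -104) and Gla (chrX:134601182-134601211, from -206 to -177). The Galc stretch (chr12:98259460-98259539) and the Lipa stretch (chr19:34527475-34527554) are on the minus strand and run from -80 to -1. In the GENCODE M21 annotation, the stretches of Mcoln1, Ctsd, Cln3 and Ctsa fall within exons of longer transcripts of the same genes, that of Gla within exons of its neighbour Hnrnph2 on the other strand and that of Galc within an antisense transcript, Gm47439. The stretches of Lamp1 and Lipa overlap no annotated exon.

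The letters CACGTG, searched on both strands, occurred in the windows of 12 of the 36 genes (33.3%), against 8.09% of the 27025 genes with a window. The 12 genes were Arsa, Cln3, Ctsa, Ctsd, Ctsf, Ctsl, Gaa, Gla, Glb1, Lamp1, Lgmn and Mcoln1. The longer form TCACGTGA, which contains the shorter element, occurred in 5 of 36 (13.9%; Cln3, Ctsa, Ctsd, Gla and Mcoln1) against 1.12% of all genes, and the palindrome with a further G before and C after it occurred in Cln3 alone (2.78%) against 0.37%. A core of the element bound by interferon-regulatory factors, GAAA and GAAA with 2 bases between them, was found in Ctso, Ctss and Lamp1 (8.33%) against 3.99% of all genes. Genes with CACGTG in the window had a median log2 fold change of -0.10 after LPS, with 7 of 12 below 0, and the 24 genes without it had -0.22, with 16 below 0. Both medians were below 0. A match describes the sequence of the window and does not show a bound site, and a window without a match lacks only these letters.

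Next, the levels of the 40 genes in the untreated EGC cultures, for which no sorting is described, were examined. To compare genes, CPM was divided by the length of each gene's exons in kilobases. The aspartic protease gene Ctsd had the highest level, 2853 ± 959 CPM per kilobase (SD, n = 3). It was followed by Psap, the precursor of the saposins that help hydrolases reach their lipids (1280 ± 187), by the cysteine protease gene Ctsb (1110 ± 495) and by Lamp1, a glycoprotein of the lysosomal membrane (718 ± 42.6). Ctss, Lgmn, Cd68 and Grn came next, between 304 and 381 CPM per kilobase. The ranges of Psap and Ctsb overlapped, as did those of Ctsb and Lamp1 and those of the next 4 genes. Within each control library Ctsb was above Lamp1, with 741, 918 and 1672 against 686, 701 and 766 CPM per kilobase, and Lgmn was above Cd68. The orders of Psap and Ctsb, of Ctss and Lgmn, and of Grn with Lgmn and Cd68 changed between control libraries and were not resolved. The regulator gene Tfeb was the lowest at 2.53 ± 0.63 CPM per kilobase, and Galc, Mcoln1, Ctso and Cln3 were also below 10.

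**Figure D1:**
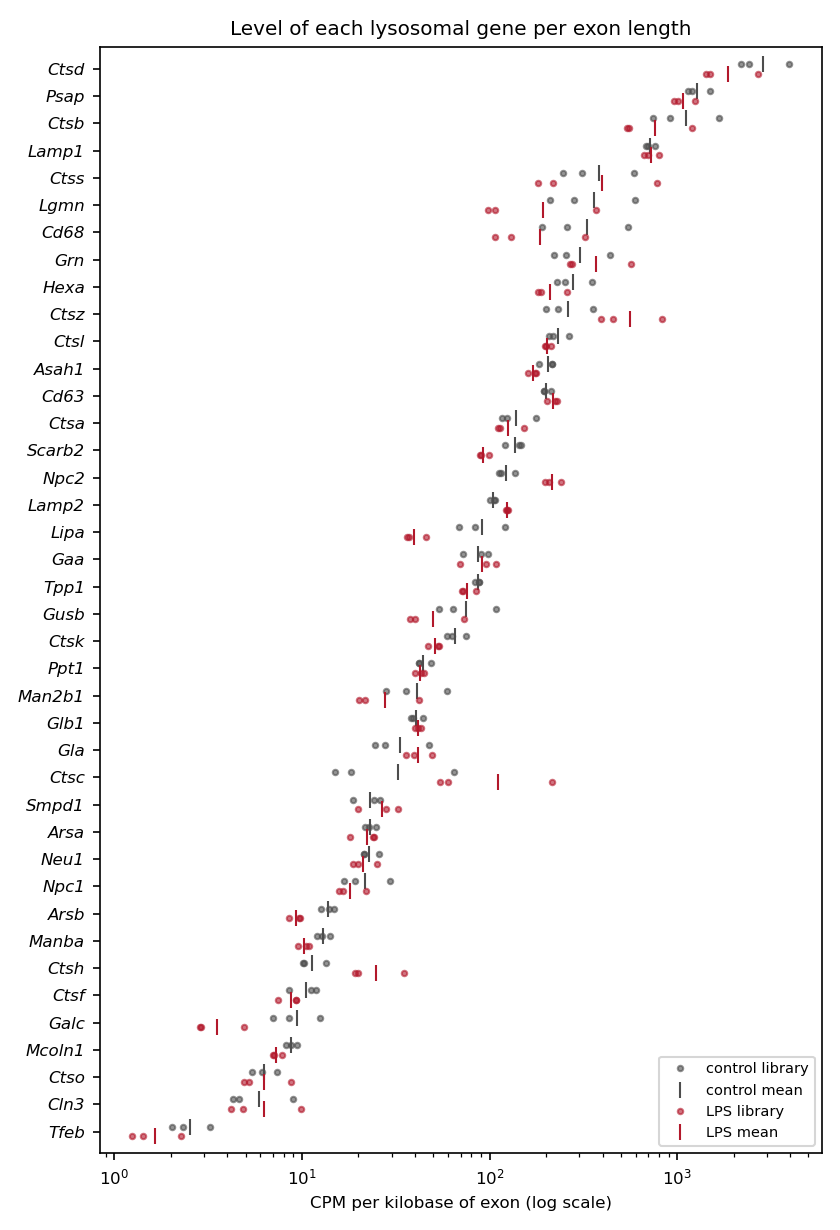
Level of each of the 40 lysosomal genes in CPM per kilobase of exon (log scale), ordered by the control mean. Points are the 6 libraries, grey for control and red for LPS, and vertical ticks are group means (n = 3). Ctsd, Psap, Ctsb and Lamp1 had the highest means in both groups, and Tfeb was lowest in both. The means of Ctsz, Ctsc and Npc2 moved up the order after LPS while those of Lgmn, Cd68 and Lipa moved down.

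After LPS the same 4 genes had the highest means, from 1873 ± 723 CPM per kilobase for Ctsd to 721 ± 69.7 for Lamp1. Ranges overlapped here too, and in LPS replicate 3 Ctsz was at 828 and Lamp1 at 799 CPM per kilobase. Below them the order of the means shifted. Ctsz went from rank 10 to rank 5, Npc2 from 16 to 9 and Ctsc from 27 to 17, whereas Lgmn went from 6 to 12, Cd68 from 7 to 13 and Lipa from 18 to 26. Replicate 3 weighed on these ranks. In LPS, Lgmn had 98.5, 107 and 369 CPM per kilobase and Ctsc had 54.3, 60.3 and 216. Together, the 40 genes took 2.85%, 3.09% and 4.33% of the library in control and 2.25%, 2.19% and 3.32% in LPS. The means, 3.42 ± 0.795% and 2.59 ± 0.638%, differed by about the spread between libraries of a group, whereas within each number the share was lower after LPS. Ctsb, Ctsd, Psap, Lamp1 and Ctsl together supplied 60.5% to 64.4% of the summed CPM of the 40 genes in control libraries and 54.3% to 56.7% in LPS libraries, and these ranges did not overlap.

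Each gene was then compared between LPS and control with the quasi-likelihood F-test of edgeR, adjusted over the 15226 genes tested and called at an adjusted p under 0.05. Of the 40 genes, 2 were called higher (5%), Ctsh and Npc2, against 9.09% of all tested genes. Lower calls numbered 4 (10%), Galc, Lipa, Scarb2 and Arsb, against 6.71% of all tested genes. Neither share was far from the background. With the replicate number as a block, 5 were called higher (12.5%), now with Ctsc, Ctsz and Lamp2, against 15.4% of all tested genes. With the block 16 were called lower (40%) against 14.9%, and the 12 added genes were Ctsb, Ctsd, Ctsf, Ctsk, Lgmn, Cd68, Gusb, Hexa, Man2b1, Manba, Psap and Tfeb. All 6 calls made without the block were also made with it. Without both libraries numbered 3, 8 genes were called higher against 22.6% of the genes tested there, and 18 were called lower against 20.4%. These included all 21 genes called with the block. Leaving out single libraries changed the number of calls over all tested genes too. No gene of the 40 was called higher without control replicate 1 or control replicate 2, against 3.03% and 2.44% of all genes tested there, and 1 was called higher without control replicate 3, LPS replicate 1 or LPS replicate 2, against 7.52%, 3.98% and 3.36%. None was called lower without control replicate 2, LPS replicate 1 or LPS replicate 2, against 0.72%, 1.44% and 1.04%, and 2 were called lower without control replicate 1, against 1.25%. Without control replicate 3, 3 genes were called lower, against 6.66%, and without LPS replicate 3 the counts were 2 higher and 4 lower, against 12.6% and 9.13%.

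Without any test, 8 genes (20%) had all LPS libraries below all controls, against 19.4% of all tested genes, and 4 (10%) had all LPS libraries above all controls, against 19.3%. Paired by number, 23 genes (57.5%) were lower after LPS in all 3 pairs, against 34.6% of all tested genes, and 8 (20%) were higher in all 3, against 31%. The remaining 9, Ctso, Ctss, Lamp1, Cd63, Glb1, Gaa, Arsa, Ppt1 and Cln3, had pairs in both directions. The median log2 fold change of the 40 genes was -0.18, with 26 below 0 and 14 above, beside -0.02 for all tested genes. It was -0.18 with the block and -0.14 without both libraries numbered 3. The size depended on single libraries, with -0.068 without control replicate 3 and -0.30 without LPS replicate 3. Under upper-quartile factors and library size alone it was -0.28 and -0.33, where the median of all tested genes was -0.12 and -0.18.

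**Figure D2:**
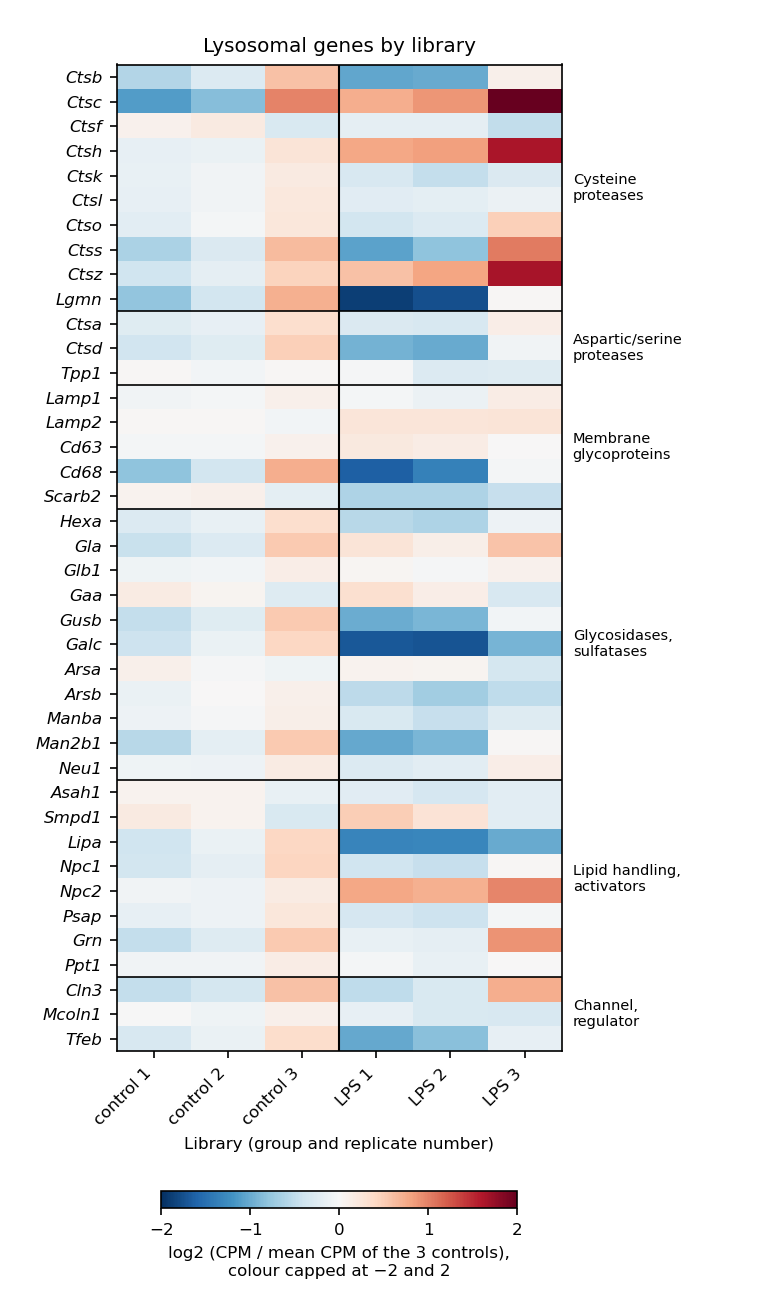
Level of each lysosomal gene in each library, as the log2 ratio of its CPM to the mean CPM of the 3 controls (blue lower, red higher, colour capped at -2 and 2), with genes grouped by role. Control replicate 3 is red for most genes, and for most genes replicate 3 is the reddest library of its group. Ctsc, Ctsh, Ctsz and Npc2 are red in all LPS libraries, and Galc and Lipa blue in all of them.

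**Figure D3:**
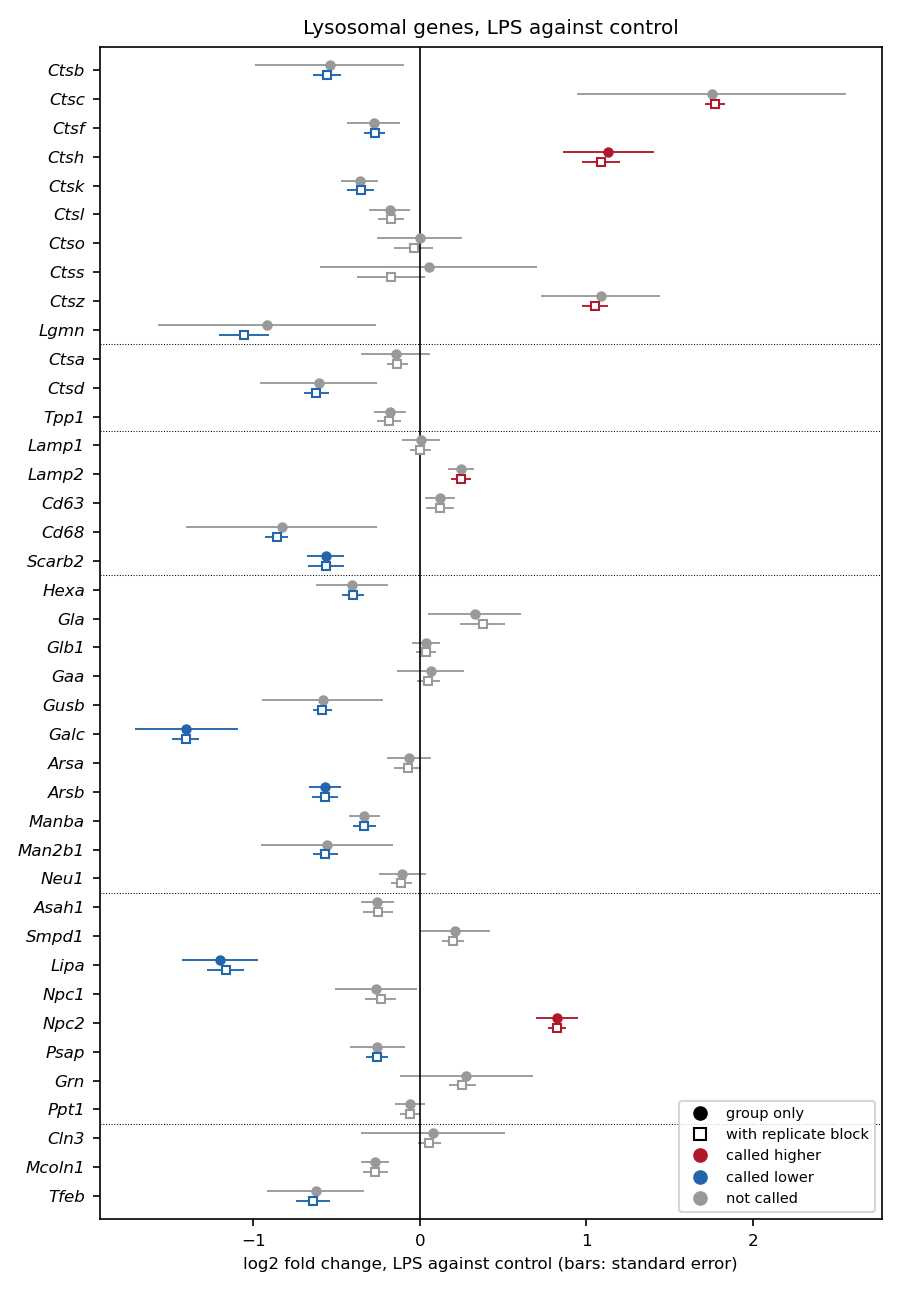
Log2 fold change of each lysosomal gene, LPS against control, with its standard error. Filled circles are the test on group alone and open squares the test with the replicate number as a block. Red marks a gene called higher, blue a gene called lower and grey a gene not called. The estimates of both tests lie close together, and the error bars of Ctsb, Ctsc, Ctsd, Lgmn and Cd68 are several times shorter with the block.

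Among the 10 cysteine proteases, which cut proteins with an active-site cysteine, 1 was called higher and none lower without the block, and 3 higher and 4 lower with it, beside 9.09% higher and 6.71% lower of all tested genes without the block and 15.4% and 14.9% with it. Ctsh, an aminopeptidase (chr9:90054152-90076089, plus strand), had 45.4, 46.3 and 60.3 CPM in control and 86.2, 89.7 and 158 CPM in LPS. All LPS libraries lay above all controls, and Ctsh rose by a log2 fold change of 1.13 (SE 0.27, edgeR adjusted p = 0.0423). Leaving out any library but LPS replicate 3 ended this call (adjusted p up to 0.156), but with the block it held (1.09, adjusted p = 0.00566). Ctsz, a carboxypeptidase, had 288, 335 and 513 CPM in control and 566, 654 and 1193 CPM in LPS, again without overlap. Its log2 fold change of 1.09 (SE 0.36) missed the threshold in edgeR (adjusted p = 0.0956) and passed it with the block (1.05, adjusted p = 0.00259). Ctsc, which removes dipeptides and activates the granule proteases of immune cells, had the largest change of the 40 with all 6 libraries. It had 87.6, 105 and 376 CPM in control and 315, 350 and 1255 CPM in LPS, so that control replicate 3 overlapped with the LPS libraries. Within numbers, however, the log2 ratios were 1.85, 1.73 and 1.74. The edgeR adjusted p was 0.198 without the block (1.75, SE 0.81) and 0.000363 with it (1.77, SE 0.06). The log2 fold change of Ctsc was 2.74 without control replicate 3 and 0.81 without LPS replicate 3, and in the latter case it was smaller than the fall of Galc.

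With the block, 4 cysteine protease genes were instead called lower, Lgmn, Ctsb, Ctsk and Ctsf. Lgmn encodes legumain, the asparaginyl endopeptidase that processes other lysosomal proteases. It had 485, 654 and 1383 CPM in control and 229, 249 and 858 CPM in LPS, and was lower after LPS in each pair although the groups overlapped. The log2 fold change was -0.92 (SE 0.66, edgeR adjusted p = 0.388), and with the block -1.05 (adjusted p = 0.0118). It was -0.34 without control replicate 3 and -1.82 without LPS replicate 3. Ctsb, a broad endopeptidase and carboxypeptidase, had 4484, 5556 and 10119 CPM in control and 3261, 3358 and 7232 CPM in LPS. The groups overlapped because LPS replicate 3 exceeded control replicates 1 and 2, and the log2 fold change of -0.54 had an edgeR adjusted p of 0.457 without the block and 0.0135 with it (-0.56). Ctsk, known as the collagen-degrading cathepsin of osteoclasts, had 90.0, 95.05 and 113 CPM in control and 79.9, 71.2 and 81.2 CPM in LPS. All LPS libraries lay below all controls, and the edgeR adjusted p was 0.0824 without the block (-0.36) and 0.0353 with it. Ctsf had 56.3, 60.0 and 43.1 CPM in control and 46.9, 47.1 and 37.6 CPM in LPS, and in both groups it was lowest in the libraries numbered 3 (log2 fold change -0.28, edgeR adjusted p = 0.289, with the block 0.0369).

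The remaining cysteine proteases, Ctss, Ctsl and Ctso, were called in neither test. Ctss, an endopeptidase that trims the invariant chain of MHC class II, had 332, 421 and 799 CPM in control and 247, 297 and 1065 CPM in LPS. It was lower after LPS in pairs 1 and 2 and higher in pair 3, and its log2 fold change was 0.05 (edgeR adjusted p = 0.966) with all libraries, -0.17 with the block (0.555) and -0.45 (0.0329) without both libraries numbered 3. The log2 fold change of Ctss was also below 0 without LPS replicate 3 (-0.93), control replicate 1 (-0.18) or control replicate 2 (-0.073), and under upper-quartile factors and library size alone, which lowered the values of all genes. Ctsl, an endopeptidase, had 1338 to 1727 CPM in control and 1278 to 1371 CPM in LPS, and Ctso had 27.8 to 37.6 CPM in control, a range that lay within that of LPS.

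Of the 3 aspartic and serine proteases, none was called without the block, beside 9.09% higher and 6.71% lower of all tested genes, and 1 was called lower with it, beside 14.9%. Ctsd, the main lysosomal aspartic protease, had 5157, 5670 and 9292 CPM in control and 3495, 3350 and 6365 CPM in LPS. LPS replicate 3 lay above control replicates 1 and 2, but within numbers Ctsd was lower by 0.56, 0.76 and 0.55 on the log2 scale. The log2 fold change was -0.61 (SE 0.35, edgeR adjusted p = 0.291), and with the block -0.62 (SE 0.08, adjusted p = 0.00832). The serine proteases Tpp1, which removes tripeptides, and Ctsa, which also protects beta-galactosidase and neuraminidase, stayed uncalled with log2 fold changes of -0.18 and -0.14.

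**Figure D4:**
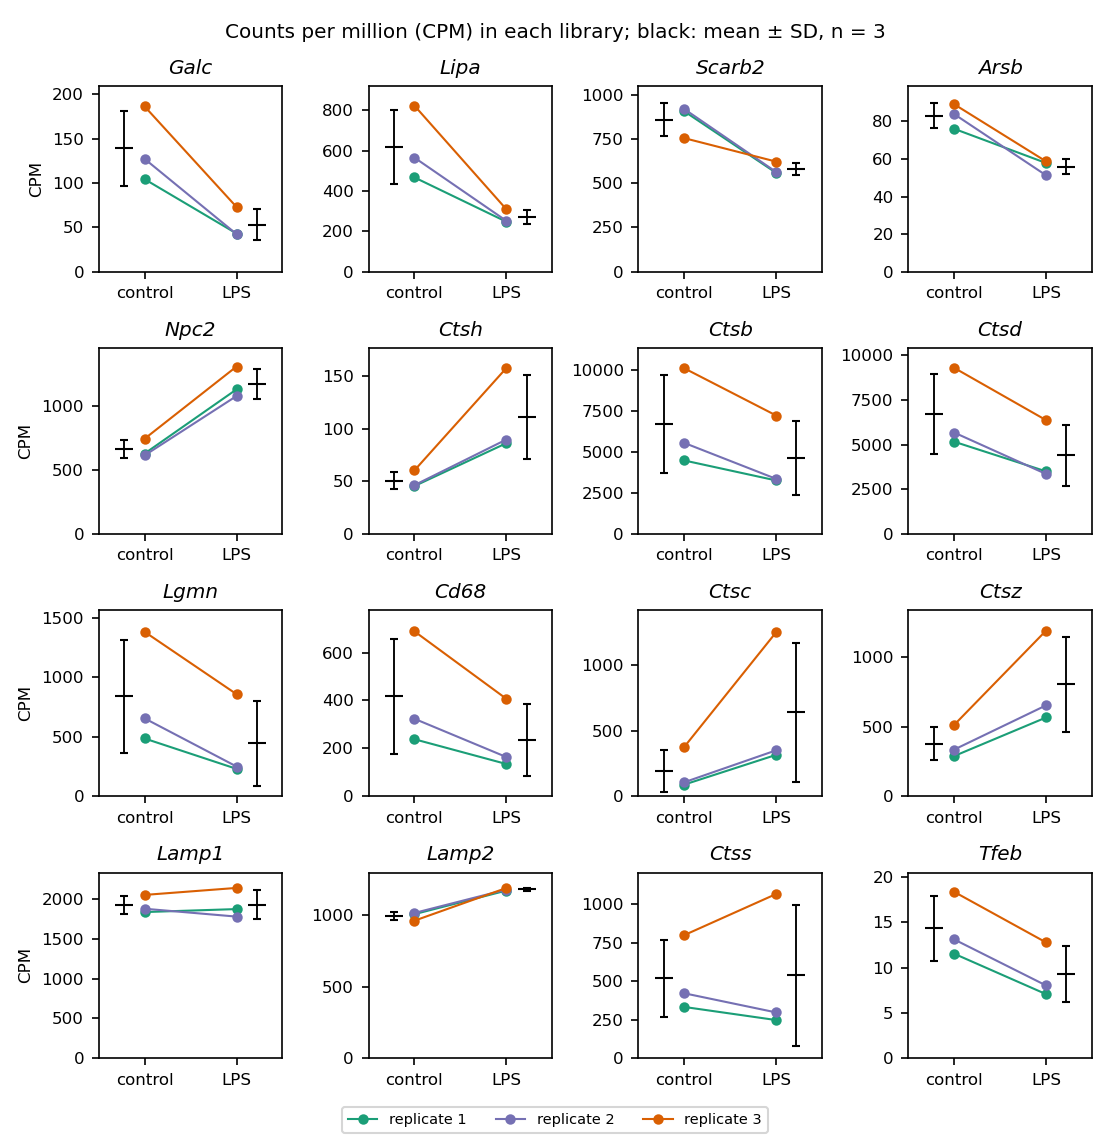
CPM of 16 lysosomal genes in each library (vertical axes start at 0). Lines join control and LPS libraries of the same replicate number, and black marks give the mean ± SD (n = 3). All 3 lines rise for Npc2 and fall for Ctsb, Ctsd and Cd68, whereas for Ctss they differ in direction, with replicate 3 rising from 799 to 1065 CPM and the others falling.

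The 5 membrane glycoproteins did not move together. Lamp1 and Lamp2 line the inner face of the lysosomal membrane, and Lamp2 is also the receptor of chaperone-mediated autophagy. Lamp1 had 1834, 1875 and 2049 CPM in control and 1871, 1777 and 2137 CPM in LPS, overlapping ranges with a log2 fold change of 0.01 (SE 0.11). Lamp2 had 1009, 1018 and 964 CPM in control and 1175, 1182 and 1193 CPM in LPS. This was a small shift without overlap, with a log2 fold change of 0.25 (SE 0.08) and an edgeR adjusted p of 0.0891 without the block and 0.0393 with it. DESeq2 also called Lamp2 higher. With upper-quartile factors and library size alone, which lowered the values of all genes, its log2 fold change was 0.14 and 0.09. Scarb2, a membrane protein that sorts cargo to the lysosome (chr5:92441314-92506833, minus strand), had 907, 919 and 755 CPM in control and 558, 563 and 622 CPM in LPS. It fell by 0.57 on the log2 scale (SE 0.11, edgeR adjusted p = 0.0253), and the call did not hold when replicate 1 or 2 of either group was left out (adjusted p up to 0.118). In contrast to most of the 40 genes, Scarb2 was lowest among controls in replicate 3. Cd68, a glycoprotein of macrophage endosomes and lysosomes, had 238, 323 and 689 CPM in control and 134, 163 and 407 CPM in LPS. Its groups overlapped through replicate 3, with a log2 fold change of -0.83 (edgeR adjusted p = 0.373) and with the block of -0.86 (0.00313). Cd63, a tetraspanin of late endosomes, had 717 to 783 CPM in control and 744 to 847 CPM in LPS and was not called in either test.

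The 11 glycosidases and sulfatases, which strip sugars and sulfate groups from glycolipids and glycosaminoglycans, had the lowest median log2 fold change of the 6 role groups, -0.33. None was called higher in either test, beside 9.09% of all tested genes without the block and 15.4% with it. In the other direction 2 were called lower without the block and 6 with it, beside 6.71% and 14.9%. Galc, the galactosylceramidase that degrades the main lipid of myelin (chr12:98202294-98259459, minus strand), had 104.3, 127 and 186 CPM in control and 43.0, 42.3 and 72.9 CPM in LPS. No libraries overlapped, and Galc fell by 1.40 on the log2 scale (SE 0.31, edgeR adjusted p = 0.0345). Leaving out any library but LPS replicate 3 again ended the call (adjusted p up to 0.126), but with the block it held (-1.41, adjusted p = 0.00145). Arsb, the sulfatase of dermatan and chondroitin sulfate (chr13:93771630-93943016, plus strand), had 76.1, 83.9 and 89.2 CPM in control and 57.9, 51.3 and 58.7 CPM in LPS. It fell by 0.57 on the log2 scale without overlap (SE 0.09, edgeR adjusted p = 0.0156), a call that did not hold when control replicate 2 or either of LPS replicates 1 and 2 was left out (adjusted p up to 0.0856).

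Another 4 genes of this group were called lower with the block alone. Gusb, the beta-glucuronidase, had 245, 289 and 491 CPM in control and 171, 182 and 331 CPM in LPS, with a log2 fold change of -0.58 and an edgeR adjusted p of 0.33 without and 0.00552 with the block. Man2b1, the lysosomal alpha-mannosidase, had 224, 288 and 474 CPM in control and 161, 174 and 335 CPM in LPS (-0.56, adjusted p = 0.383 without and 0.0101 with the block in edgeR). Both genes had the same layout as Ctsb and Ctsd: lower after LPS in each pair, with overlapping groups because the libraries numbered 3 were high. Hexa, the alpha subunit of hexosaminidase, had 458, 501 and 699 CPM in control and 377, 361 and 514 CPM in LPS (-0.41, adjusted p = 0.255 without and 0.0173 with the block in edgeR). Manba, the beta-mannosidase, had 84.1, 88.7 and 98.2 CPM in control and 73.4, 66.0 and 75.8 CPM in LPS, without overlap (-0.33, adjusted p = 0.0632 without and 0.029 with the block in edgeR). The other members, Gla, Glb1, Gaa, Arsa and Neu1, had log2 fold changes from -0.10 for Neu1 to 0.33 for Gla and were called in neither test. Gla, the alpha-galactosidase, was higher after LPS in each pair but by unequal log2 ratios of 0.71, 0.38 and 0.06.

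Among the 8 genes of lipid hydrolysis, lipid export and activators, 1 was called higher and 1 lower, beside 9.09% and 6.71% of all tested genes, and with the block 1 higher and 2 lower, beside 15.4% and 14.9%. Lipa, the acid lipase that frees cholesterol and fatty acids from lipoprotein esters (chr19:34492318-34527474, minus strand), had 467, 565 and 823 CPM in control and 247, 252 and 309 CPM in LPS. All LPS libraries lay below all controls, and Lipa fell by 1.20 on the log2 scale (SE 0.23, edgeR adjusted p = 0.0235). Leaving out control replicate 2 or either of LPS replicates 1 and 2 ended this call (adjusted p up to 0.101). Npc2, the soluble carrier that hands free cholesterol to the exporter Npc1 (chr12:84754562-84773152, minus strand), had 628, 614 and 744 CPM in control and 1130, 1078 and 1309 CPM in LPS. It rose by 0.82 on the log2 scale without overlap (SE 0.13, edgeR adjusted p = 0.0125) and by nearly the same log2 ratio in each pair, 0.85, 0.81 and 0.82. The call was lost without control replicate 1 or control replicate 2 (adjusted p up to 0.0765). Npc1 itself had 190 to 331 CPM in control and 179 to 249 CPM in LPS, a log2 fold change of -0.26 (SE 0.25) that was not called. Psap had 3147, 3290 and 4098 CPM in control and 2780, 2623 and 3424 CPM in LPS, overlapping groups with a log2 fold change of -0.26 and an edgeR adjusted p of 0.344 without and 0.0462 with the block. The ceramidase gene Asah1 had 621 to 726 CPM in control and 545 to 599 CPM in LPS. These ranges did not overlap, but the edgeR adjusted p was 0.141 without and 0.0966 with the block. Smpd1, the acid sphingomyelinase, Grn, the precursor of the granulins, and Ppt1, which removes palmitate from proteins, had log2 fold changes of 0.21, 0.28 and -0.06 and were not called.

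The last 3 genes are Mcoln1, the calcium channel of the lysosomal membrane, Cln3, a membrane protein of the lysosome, and Tfeb, the transcription factor that drives many lysosomal genes. Tfeb had 11.5, 13.1 and 18.3 CPM in control and 7.07, 8.02 and 12.8 CPM in LPS. LPS replicate 3 lay within the control range, but Tfeb was lower after LPS in each pair, by 0.71, 0.71 and 0.52 on the log2 scale. The log2 fold change was -0.63 (SE 0.29, edgeR adjusted p = 0.199), and with the block -0.64 (adjusted p = 0.0157). Mcoln1 had 62.2 to 71.1 CPM in control and 53.0 to 58.9 CPM in LPS, without overlap, and a log2 fold change of -0.27 (edgeR adjusted p = 0.0865, with the block 0.0594). Cln3 had 24.7 to 51.5 CPM in control and 24.1 to 56.8 CPM in LPS, was highest in replicate 3 of both groups and was not called (log2 fold change 0.08, SE 0.43).

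The pattern across replicate numbers was then described for the same genes. Control replicate 3 was the highest control library for 33 of 40 genes (82.5%), against 42.7% of all tested genes, and LPS replicate 3 the highest LPS library for 33 of 40, against 44.1%. Compared with the mean of the other libraries of its group, replicate 3 was at 0.741- to 3.90-fold in control (median 1.27) and at 0.662- to 3.92-fold in LPS (median 1.28) over the 40 genes. In 12 genes it was above 1.5-fold in both groups. The ratio was largest for Ctsc in control, 3.90-fold beside 3.77-fold in LPS, and for Ctss in LPS, 3.92-fold beside 2.12-fold in control. It was 2.43- and 3.59-fold for Lgmn, 2.46- and 2.74-fold for Cd68 and 2.02- and 2.19-fold for Ctsb. By contrast, Lamp2 was at 0.951- and 1.01-fold and Npc2 at 1.20- and 1.19-fold. The 12 macrophage markers had medians of 2.84-fold in control and 6.85-fold in LPS, and the 10 glia markers 0.832- and 0.991-fold. The part that macrophage RNA had in the levels of the lysosomal genes was not tested. In replicates 1 and 2, the summed macrophage markers were 3984 and 5159 CPM in control and 3976 and 5166 CPM in LPS. Most of each sum was Lyz2, with 2888 and 3490 CPM in control and 2385 and 3069 CPM in LPS. The single markers differed in both directions there, with Mrc1 at 197 and 331 CPM in control and 9.29 and 10.4 CPM in LPS and Adgre1 at 159 and 229 CPM in control and 952 and 1261 CPM in LPS.

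**Figure D5:**
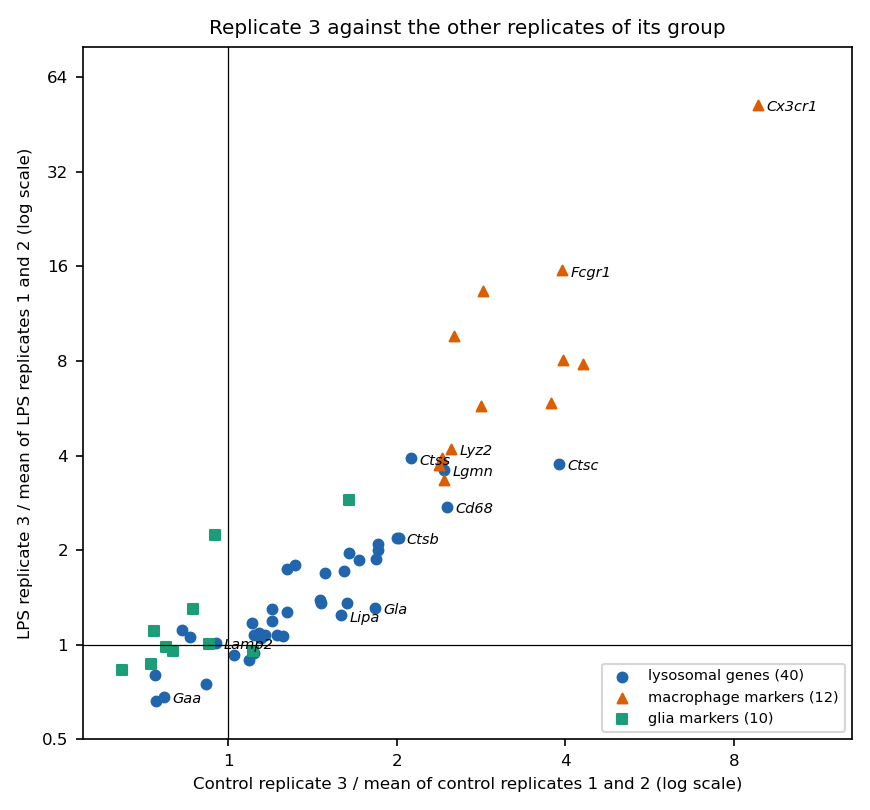
Ratio of replicate 3 to the mean of replicates 1 and 2 in control (horizontal axis) and in LPS (vertical axis), both on log scales, for the 40 lysosomal genes (blue), 12 macrophage markers (orange) and 10 glia markers (green). Lysosomal genes spread along the diagonal from a few genes below 1 in both groups, such as Gaa, to Ctsc at 3.90 and 3.77, macrophage markers lie above 2.38 in control and 3.34 in LPS, and most glia markers lie near or below 1.

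When both libraries numbered 3 were left out, the changes of the called genes were of similar size. Galc was at -1.42 (SE 0.10), Lipa at -1.03 (SE 0.09), Scarb2 at -0.68 (SE 0.05), Arsb at -0.53 (SE 0.08), Npc2 at 0.85 (SE 0.05) and Ctsh at 0.96 (SE 0.06) on the log2 scale. Ctsc was at 1.81 (SE 0.10) and Ctsz at 0.99 (SE 0.10), whereas Lgmn was at -1.23 (SE 0.14), Cd68 at -0.89 (SE 0.16), Ctsd at -0.64 (SE 0.06), Ctsb at -0.58 (SE 0.10) and Tfeb at -0.68 (SE 0.14). All of these were called in that fit of 2 against 2 libraries, in edgeR with adjusted p-values from 3.24e-05 for Ctsc to 0.0082 for Tfeb. Cd63, Gla and Smpd1 were called higher and Asah1 and Ctss lower there and in neither of the other tests.

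To place the 40 genes among other parts of the lysosomal system, 108 further genes in 7 lists were read from the same test. Of these, 98 had enough counts to be tested. The test called 11 of them higher and 11 lower, beside 9.09% and 6.71% of all tested genes, and with the block 21 higher and 27 lower, beside 15.4% and 14.9%. Both higher counts include Stfa3, which had no counts in control. Of 23 other lysosomal hydrolases, 4 were called higher and 1 lower, and with the block 6 higher and 4 lower. The shares over all tested genes just given apply to each list that follows. Acp5, the tartrate-resistant acid phosphatase of osteoclasts and activated macrophages, had 4.53, 3.28 and 4.13 CPM in control and 48.8, 72.3 and 93.2 CPM in LPS, with no overlap and a log2 fold change of 4.16 (SE 0.29, edgeR adjusted p = 0.00105). The acid ribonuclease genes Rnaset2a and Rnaset2b rose by 1.50 and 1.64 on the log2 scale, but they are close copies of each other whose counts are uncertain. Sgsh, the heparan sulfatase, had 48.3, 51.7 and 68.9 CPM in control and 21.9, 21.01 and 25.9 CPM in LPS and fell by 1.29 (SE 0.17, edgeR adjusted p = 0.00784).

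Of the 19 subunits of the proton pump that acidifies lysosomes, the test called 2 higher and 2 lower and left 15 uncalled, against 9.09% and 6.71% of all tested genes. With the block 4 were higher, 6 lower and 9 uncalled, against 15.4% and 14.9%. Atp6v0d2 had 53.0, 57.5 and 76.1 CPM in control and 11.6, 6.85 and 5.86 CPM in LPS and fell by 2.94 on the log2 scale (SE 0.30, edgeR adjusted p = 0.0036), and Atp6v0a1 fell by 1.03 (adjusted p = 0.0312). Atp6v0a2 and Atp6v1e1 rose by 0.30 and 0.28. Of the 22 other lysosomal membrane proteins, 21 were tested, and the test called 2 higher and 5 lower, and with the block 4 higher and 8 lower. The peptide transporter gene Slc15a3 and the metal transporter gene Slc11a1 rose by 2.25 and 1.89 on the log2 scale. Gpnmb, a glycoprotein of macrophage lysosomes and melanosomes, had 2863, 3230 and 5048 CPM in control and 1386, 1150 and 1671 CPM in LPS and fell by 1.40 (SE 0.26, edgeR adjusted p = 0.0224). Lower calls also went to the peptide transporter gene Abcb9 (-1.24), the channel genes Tpcn1 (-0.90) and Tmem175 (-0.46) and the cystine exporter gene Ctns (-0.66). Ctns and Tmem175 lie outside the naming rule and were named after their values were seen.

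Of the 12 genes of mannose 6-phosphate tagging and sorting, none was called higher without the block and 2 lower, the sorting receptor gene Sort1 (-1.27) and the adaptor gene Gga2 (-0.32), beside 9.09% and 6.71% of all tested genes. With the block 1 was called higher, the mannose 6-phosphate receptor gene M6pr (0.58, edgeR adjusted p = 0.0197), and 4 lower, among them the other receptor gene Igf2r (-0.64, adjusted p = 0.0226), beside 15.4% and 14.9%. Of the 17 genes of the TFEB family and of the kinase module that holds these factors in the cytoplasm, Rragd alone was called, lower by 1.38 on the log2 scale (SE 0.20, edgeR adjusted p = 0.0114). Rragd encodes a GTPase that recruits TFEB to the lysosome. With the block, 2 were called higher, Tfe3 and Tfec (0.60 and 1.54), and 5 lower, Rragd with Fnip2 (-0.60), Lamtor4 (-0.36), Rragc (-0.34) and Flcn (-0.32), and Mitf had a log2 fold change of 0.20 (edgeR adjusted p = 0.205). The genes called with the block alone were named after their values were seen. Of 8 genes for inhibitors of cathepsins, 6 passed the filter. Stfa3 passed it only through the LPS libraries and so had to differ, which leaves Serpina3g and Cst7 as genes called higher, and none was called lower. With the block Cstb was also called higher (0.73, edgeR adjusted p = 0.00299). Serpina3g had 13.3, 14.3 and 18.5 CPM in control and 188, 176 and 113 CPM in LPS (log2 fold change 3.37, SE 0.25, edgeR adjusted p = 0.00127), and Cst7, the inhibitor of Ctsc, had 0.593, 1.02 and 2.89 CPM in control and 12.6, 12.4 and 31.1 CPM in LPS (3.63, SE 0.71, adjusted p = 0.0246). Stfa3 had no count in any control and 0.791, 0.836 and 1.88 CPM in LPS, where 3 counts correspond to 0.124 to 0.133 CPM in the controls. A list of 7 cathepsin genes of other tissues, among them Ctse, Ctsg and Ctsw, did not pass the filter, and their summed level was at most 0.868 CPM in any library.

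Some of these counts could be shared with neighbouring or copied genes. Of the 50-base words in Ctsd transcripts, 32.4% also occurred in Gm49369, a model that overlaps Ctsd on the same strand, so reads there could have been assigned to either or dropped. The share was 11.0% for Cd63 with its pseudogene Cd63-ps, 6.46% for Ctsl with the pseudogene Gm49230 and 4.26% for Glb1 with Tmppe, and at most 1.17% for the other genes. On the opposite strand, exons of Arsb overlapped with Gm26527 over 32.3% of their length, Ctsl with Gm47123 over 26.8%, Arsa with C230037L18Rik over 18.8%, Ctsb with Fdft1 over 12.8%, Hexa with Tmem202 over 12.8% and Ctsa with Pltp over 10.5%. Smaller overlaps were those of Lamp1 with Grtp1 over 9.31%, Arsb with Gm47210 over 7.67% and Cln3 with Apobr over 7.65%, among others. Gm26527 had at most 3 counts in a library. Pltp had 3112 to 4002 counts in control and 1291 to 2115 in LPS, and Apobr had 652, 853 and 1784 counts in control and 568, 666 and 1243 in LPS, highest in replicate 3 as Cln3 was. The kit named in the labels keeps the strand, but whether the counting used it is not given in the sources used here.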

How the data were processed

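Gene-level counts of 6 libraries were analysed. Per the labels and the submitters' processing notes, poly(A) RNA was prepared with a stranded Illumina kit, and the authors' tools included cutadapt 1.15, Bowtie2 2.3.3.1, STAR 2.5.2b, SAMtools 1.5 and featureCounts 1.5.3 on GRCm38. Whole-number gene counts without normalization had been deposited, 1 file per library. A table of the whole series was not used here. No counts fell in an entry without a gene.

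Low-count genes were removed with filterByExpr (minimum count 10, minimum total 15) of edgeR 4.0.16 in R 4.3.3, leaving 15226. Values are CPM on library sizes corrected with trimmed mean of M-values factors. LPS and control were compared with the two-sided edgeR quasi-likelihood F-test on group alone, with Benjamini-Hochberg adjustment over all tested genes and calls at an adjusted p under 0.05. The standard error is the absolute log2 fold change divided by the square root of F. Scripts were tested on simulated data. Intervals of counting error are not given, because PCR copies cannot be recognized in counts.

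The replicate numbers were taken to pair the libraries, and calls with the block are given for the 40 genes and, as counts, for the further lysosomal lists. Deviations from group means correlated between control and LPS libraries of the same number with r = 0.513, 0.334 and 0.613 across genes. The pairing is an assumption, since the labels do not say what a number stands for. LPS replicate 2 correlated more with control replicate 1 (0.419) than with control replicate 2 (0.334). LPS replicate 1 correlated more with control replicate 1 (0.513) than with control replicate 2 (0.323). Deviations within a group cancel out, so libraries numbered 3 that stand apart alike are enough to make all of these values positive. The correlations thus show that the libraries numbered 3 deviated alike, and they cannot decide how replicates 1 and 2 pair.

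The genes, lists and tests were chosen with earlier results of these data known. The rule for naming took all 40 genes, with library values for those called with or without the block, the 6 with the highest level, the 5 with the largest change, Tfeb and genes with 1 library apart from the other 5, and up to 3 called genes per further list and direction. Exon lengths and positions come from GENCODE M21 (GRCm38), and promoter windows from RefSeq (GRCm38.p6). Alternatives were other scaling factors and filters, DESeq2 1.42.0, limma-voom (limma 3.58.1), the replicate block, and leaving out libraries. Leaving out both libraries numbered 3 was chosen after the data were seen. A called gene of the further lists is counted but not reported here.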

Additional observations from a re-analysis of the deposited data

How the results depend on the processing

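Relative log expression factors, both other filters on low counts and limma-voom left the numbers of genes called, among all genes, among the 40 and among the other lysosomal genes, within 1.5 times those reported. Upper-quartile factors and library size alone moved the median of the log2 fold changes from -0.02 to -0.12 and -0.18 over all genes and from -0.18 to -0.28 and -0.33 over the 40. They called 1050 and 986 genes higher and 1589 and 2054 lower, where the reported split was 1384 and 1022. Of the 40, 7 were then lower under both, with Ctsk, Manba and Mcoln1 added, and of the other lysosomal genes 18 and 23. DESeq2 called 2079 genes higher and 1673 lower, with 4 of the 40 and 18 other lysosomal genes higher. The replicate block gave 2343 higher and 2273 lower, 5 and 16 of the 40, and 21 and 27 other lysosomal genes. The block gained calls and lost none of those for the 40. Without both libraries numbered 3 the counts were 3498 and 3159, 8 and 18, and 25 and 28.

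Leaving out single libraries gave 379 to 1964 genes higher and 112 to 1426 lower, 0 to 2 and 0 to 4 of the 40, and 3 to 13 and 3 to 16 other lysosomal genes. The lowest counts over all genes came without control replicate 2. The median of the 40 lay between -0.30 (without LPS replicate 3) and -0.068 (without control replicate 3), and their share of counts differed by -1.20 to -0.383 percentage points.

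Signs changed for genes that were not called with all 6 libraries. Under upper-quartile factors and library size alone, log2 fold changes were -0.069 and -0.11 for Ctss, -0.099 and -0.15 for Lamp1, -0.066 and -0.12 for Glb1, -0.035 and -0.089 for Gaa and -0.030 and -0.077 for Cln3, and Cd63 was at -0.031 with library size alone. Ctso was at 0.014 with relative log expression factors and with DESeq2, and Lamp1 at -0.012 with no filter. Ctss was at -0.17 with limma-voom and with the replicate block. Leaving out single libraries moved Ctss from -0.93 to 0.52, Lamp1 from -0.076 to 0.072 and Cln3 from -0.40 to 0.51, Ctso from -0.32 to 0.15, Ctsa from -0.31 to 0.078, Gaa from -0.079 to 0.23, Neu1 from -0.24 to 0.0033, Npc1 from -0.43 to 0.029, Ppt1 from -0.095 to 0.032, Arsa from -0.13 to 0.060 and Grn from -0.17 to 0.65. Without both libraries numbered 3, Ctss was at -0.45, Lamp1 at -0.00064, Arsa at 0.043 and Ppt1 at 0.0069. Without control replicate 3 and without LPS replicate 3, values that kept their sign included -0.24 and -1.49 for Cd68, -0.11 and -1.02 for Ctsb, -0.28 and -0.97 for Ctsd, -0.21 and -0.95 for Gusb, -0.18 and -0.98 for Man2b1, -0.19 and -0.58 for Hexa, -0.11 and -0.38 for Psap, -0.39 and -0.93 for Tfeb and 1.38 and 0.69 for Ctsz. Over all fits without a single library, Gla ran from 0.16 to 0.70, Smpd1 from 0.053 to 0.38 and Ctsf from -0.39 to -0.17. The causes were not tested. The 40 genes had at least 143 counts in every library, and no fit varied the depth.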
